A study of Lissachatina fulica and Mizuhopecten yessoensis with 12 samples.

Results

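Cilia, axoneme and microtubule genes were taken from the deposited chamber comparisons of scallop and giant African snail hearts by gene symbol. The rule took symbols that start like those of axonemal and cytoplasmic dynein, intraflagellar transport, the BBSome, the radial spokes and central pair, tubulins, tubulin ligases, microtubule-associated proteins and ciliary kinesins, and also the families named for a repeat or domain (TTC, CCDC, LRRC, EFCAB and ARMC). It found 68 of the 6081 listed genes. Of these, 56 came from the 4195 genes of the scallop table (2490 with a symbol) and 12 from the 1886 genes of the snail table (1042 with a symbol). No measured value entered the rule. The symbols are the authors' names for molluscan genes, and many TTC, CCDC, LRRC and ARMC proteins work outside cilia, so the 29 scallop and 7 snail members with such names were kept apart from the axoneme genes proper.

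Motile cilia and sperm tails bend because dynein heavy chains on the outer doublet microtubules walk along the neighbouring doublet, under the control of the central pair and the radial spokes. Cilia are built and kept by intraflagellar transport, in which kinesin-2 carries cargo to the tip and the dynein-2 motor returns it, while TTLL enzymes add glutamate or glycine chains to the tubulin tails. Tubulins, microtubule-associated proteins and light chains of the LC8 type also serve neurons, muscle and dividing cells, so these genes are not markers of cilia alone.

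The study collected atria and ventricles of adult wild-type hearts of the scallop Mizuhopecten yessoensis and the snail Lissachatina fulica and sequenced poly-A RNA from each chamber. There were 3 atrium and 3 ventricle libraries per species, 12 in all. The chamber is the only factor the labels give, and they do not say whether the libraries of a chamber came from separate animals, so a p-value reflects no more than the variation among these libraries, part of which may be technical. In bulk tissue, fewer cells of a type and less RNA per cell cannot be told apart.

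The values are normalized counts, that is reads per gene divided by 1 size factor per library. The listed genes held 10120508 to 11987811 reads in scallop atria and 12841841 to 21526834 in scallop ventricles, and 766181 to 1165104 in snail atria and 606309 to 741081 in snail ventricles. The tables list only genes with an unadjusted p under 0.05 and at least a 2-fold difference in the authors' deposited table, so the direction, size and spread of the members are the results, and a gene not listed is not analysed here. The limma p-values below were adjusted within these selected genes. They are therefore lenient and do not control the error rate over all measured genes. Scallop ventricle 3 stood apart: over the 1648 listed genes that passed the test toward the atrium, it lay a median 28.1% of the way to the atrial mean (quartiles -5.21% and 60.6%), with ventricles 1 and 2 setting 0%. Of the muscle markers tested, 6 of 8 in scallop and 4 of 6 in snail passed toward the ventricle, and 1 in snail, an unc-22 copy, toward the atrium. The background toward the ventricle was 45.6% of all tested genes in scallop and 37.0% in snail. The summed normalized counts of the muscle markers were 319726 to 338147 in scallop atria, against 628746 to 1004900 in scallop ventricles, and 6722 to 10062 in snail atria, against 33731 to 60245 in snail ventricles.

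In scallop, most genes of the moving axoneme were higher in the atrium, and the light chains were higher in the ventricle. Repeat-named members were divided between the chambers in shares near those of all tested genes. Of 54 members with a mean of at least 10 normalized counts, 29 passed the test toward the atrium and 15 toward the ventricle, and 10 did not pass (limma on log2 of the normalized count plus 1, Benjamini-Hochberg adjusted p under 0.05 over all 3927 tested genes, at least 2-fold). The background was 42.0% of all tested genes for the atrium and 45.6% for the ventricle. The median log2 fold change (atrium over ventricle throughout) was 1.15 over the members and -1.01 over all tested genes. In 27 members the 3 atria lay above the 3 ventricles, in 23 below and in 4 the groups overlapped, against a background of 40.1% above and 47.7% below. The authors' deposited table gave 30 of the 56 members an adjusted p under 0.05, against 68.4% of all listed scallop genes. The split depended on scaling: 29 atrial and 4 ventricular members passed after a further TMM scaling, 29 and 0 after rescaling to ribosomal protein genes, and 11 and 12 after quantile normalization, which moved the median of all tested genes from -1.01 to -0.54, 0.22 and -0.36. Over all tested genes the atrial and ventricular counts moved as well. They were 1728 and 627, 1738 and 59, and 975 and 1131 under these scalings, against 1648 and 1792 without them. Each scaling used listed genes only, and these were selected for a chamber difference. The ribosomal rescaling sets the median of such genes equal between libraries, so the counts and signs after it depend on that choice of reference.

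**Figure D1:**
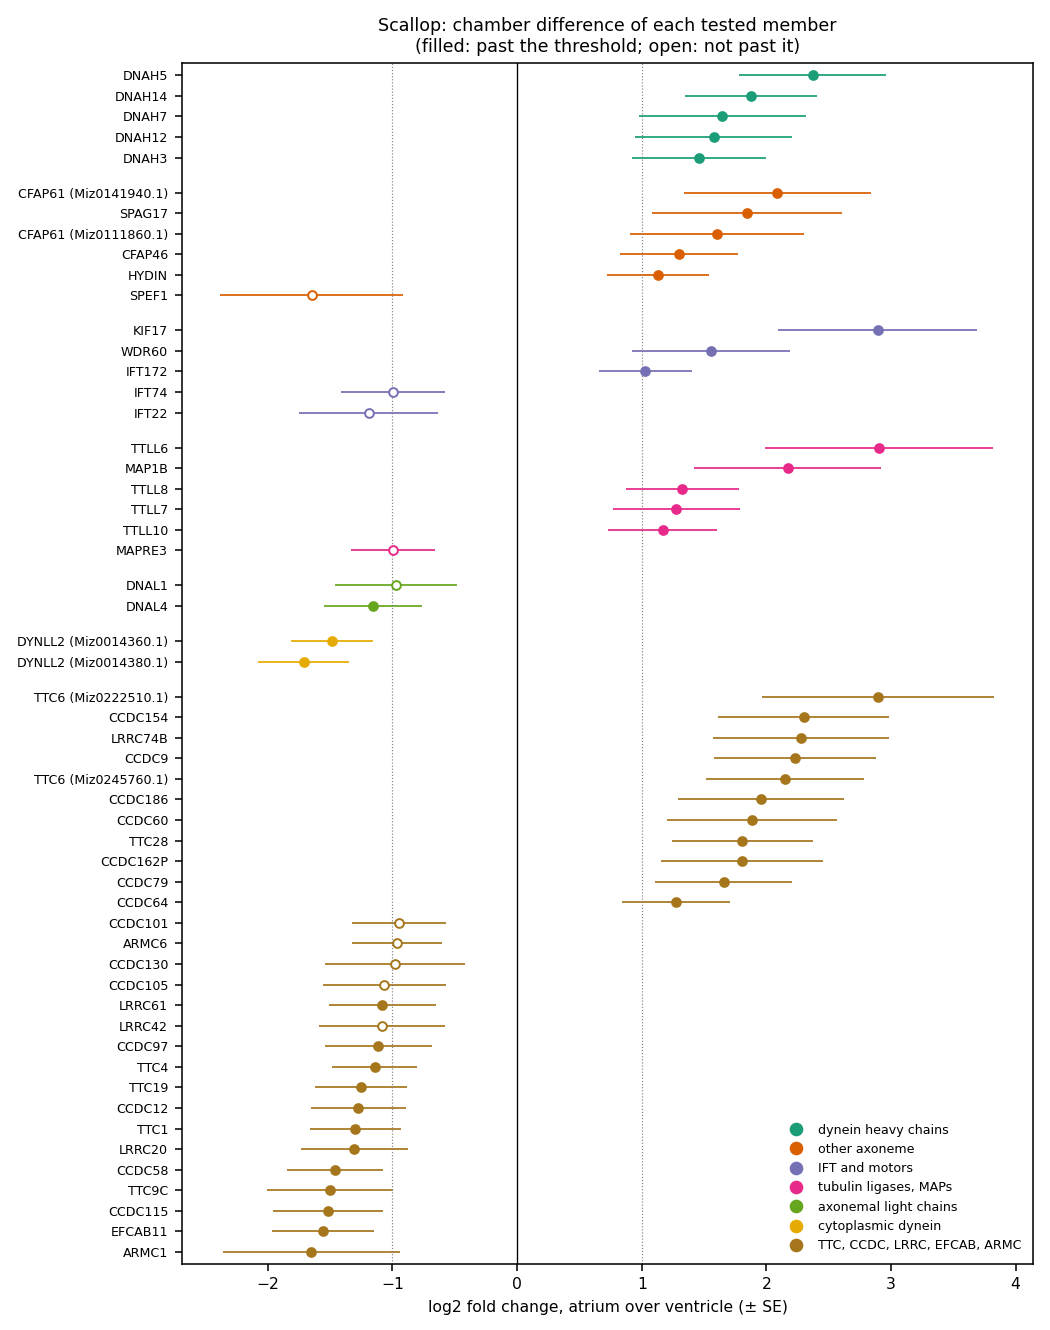
Log2 fold change of each tested scallop member, atrium over ventricle, with its standard error as a bar; filled points passed the test, open points did not, and colours mark the gene classes. The dynein heavy chains, 3 transport genes, 5 other axoneme genes and 5 tubulin ligases and microtubule-associated proteins lie to the right of the 2-fold line, and DNAL4, both DYNLL2 genes and 12 repeat-named genes that passed lie to the left.

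The axonemal dynein heavy chains are the motors of ciliary beating. All 6 listed in scallop were higher in atria, and the 5 that could be tested passed, with log2 fold changes of 1.46 to 2.37. Their summed counts were 1527, 1225 and 1438 normalized counts in atria 1 to 3, against 190.3, 441 and 707 in ventricles 1 to 3. DNAH5 (Miz0197550.1), an outer arm motor mutated in human primary ciliary dyskinesia, had 279, 345 and 445 normalized counts in atria 1 to 3, against 31.0, 66.2 and 144 in ventricles 1 to 3. Every atrium lay above every ventricle, and ventricle 3 was the highest of the ventricles (log2 fold change 2.37 ± 0.59 SE, limma adjusted p = 0.00878 by Benjamini-Hochberg).

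DNAH14 (Miz0163000.1), another axonemal heavy chain, had 522, 295 and 268 normalized counts in atria 1 to 3, against 61.9, 75.2 and 174 in ventricles 1 to 3. The groups did not overlap (log2 fold change 1.88 ± 0.53 SE, limma adjusted p = 0.0130). DNAH7 (Miz0195620.1), an inner arm motor, had 222, 231.2 and 350.1 normalized counts in atria 1 to 3, against 26.5, 135 and 157 in ventricles 1 to 3, again without overlap (log2 fold change 1.65 ± 0.67 SE, limma adjusted p = 0.0394). The inner arm motors DNAH12 and DNAH3 passed with log2 fold changes of 1.58 ± 0.63 and 1.46 ± 0.53 SE. DNAH2, also of the inner arm, was too low to test, with 58 atrial reads and 4 ventricular reads, or 10.5-fold after size factors (95% exact interval 3.90 to 40.0, counting error only). Of the 5 heavy chains, 1 passed without atrium 1, 2 without atrium 2, atrium 3 or ventricle 1, and 5 without ventricle 2 or ventricle 3. After quantile normalization 2 of the 5 passed, and the authors' deposited table gave 2 of them an adjusted p under 0.05.

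The light chains went the other way. DNAL4 (Miz0216390.1), an axonemal light chain, had 269.6, 231.2 and 249 normalized counts in atria 1 to 3, against 559, 769.9 and 401 in ventricles 1 to 3. Every ventricle lay above every atrium (log2 fold change -1.15 ± 0.40 SE, limma adjusted p = 0.0228), but this changed sign to 0.08 after ribosomal rescaling, as DNAL1 did to 0.26. DNAL1, which binds an outer arm heavy chain, was at -0.97 ± 0.49 SE and did not pass (limma adjusted p = 0.0762). DNAL4 did not pass without atrium 1, 2 or 3 or ventricle 2, nor with edgeR or further TMM scaling, and both light chains passed without ventricle 3.

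DYNLL2, an LC8 light chain shared by dynein, myosin V and many other proteins, was listed as 2 genes. DYNLL2 (Miz0014360.1) had 3222, 3716 and 4031 normalized counts in atria 1 to 3, against 12856, 12049.7 and 6841 in ventricles 1 to 3. DYNLL2 (Miz0014380.1) had 3939, 3398 and 4334 normalized counts in atria 1 to 3, against 17303, 15754 and 7482 in ventricles 1 to 3. In both, every ventricle lay above every atrium and ventricle 3 was the lowest ventricle (log2 fold changes -1.49 ± 0.33 and -1.71 ± 0.36 SE, limma adjusted p = 0.00582 and 0.00500). They passed whichever library was left out, and kept the sign but did not pass after quantile or ribosomal rescaling. Near-identical copies can share reads, so the division between these 2 is uncertain.

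Among the central pair, radial spoke and related genes, 5 of 6 passed toward the atrium. One CFAP61 gene (Miz0141940.1), part of the complex at the base of the radial spokes, had 46.3, 79.3 and 64.7 normalized counts in atria 1 to 3, against 22.1, 4.51 and 24.4 in ventricles 1 to 3. The groups did not overlap (log2 fold change 2.09 ± 0.75 SE, limma adjusted p = 0.0262). The other CFAP61 gene (Miz0111860.1) had 106, 195 and 334 normalized counts in atria 1 to 3, against 25.4, 143 and 64.7 in ventricles 1 to 3. Here the groups overlapped, although the limma test passed (log2 fold change 1.601 ± 0.70 SE, adjusted p = 0.0488).

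HYDIN (Miz0259880.1), a central pair protein, had 421, 308 and 397 normalized counts in atria 1 to 3, against 150.4, 150.4 and 214 in ventricles 1 to 3, and every atrium lay above every ventricle (log2 fold change 1.13 ± 0.41 SE, limma adjusted p = 0.0265). CFAP46 (Miz0238000.1), also of the central pair, had 627, 982 and 570.1 normalized counts in atria 1 to 3, against 152, 439 and 350.0 in ventricles 1 to 3, without overlap (log2 fold change 1.301 ± 0.47 SE, limma adjusted p = 0.0273). SPAG17, which sits on the same structure, passed at 1.85 ± 0.76 SE. SPEF1, a microtubule-bundling protein of the central pair, was the exception at -1.65 ± 0.73 SE, with overlapping groups and no pass (limma adjusted p = 0.0521). In limma, 0 of the 5 passed without atrium 1, 2 or 3 (3, 2 and 1 of them were past an unadjusted p of 0.05 at 2-fold or more), 1 passed without ventricle 1, 3 without ventricle 2 and 4 without ventricle 3, and edgeR and DESeq2 passed 4 each on all libraries. After quantile normalization 2 passed, and the authors' deposited table gave 1 an adjusted p under 0.05.

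**Figure D2:**
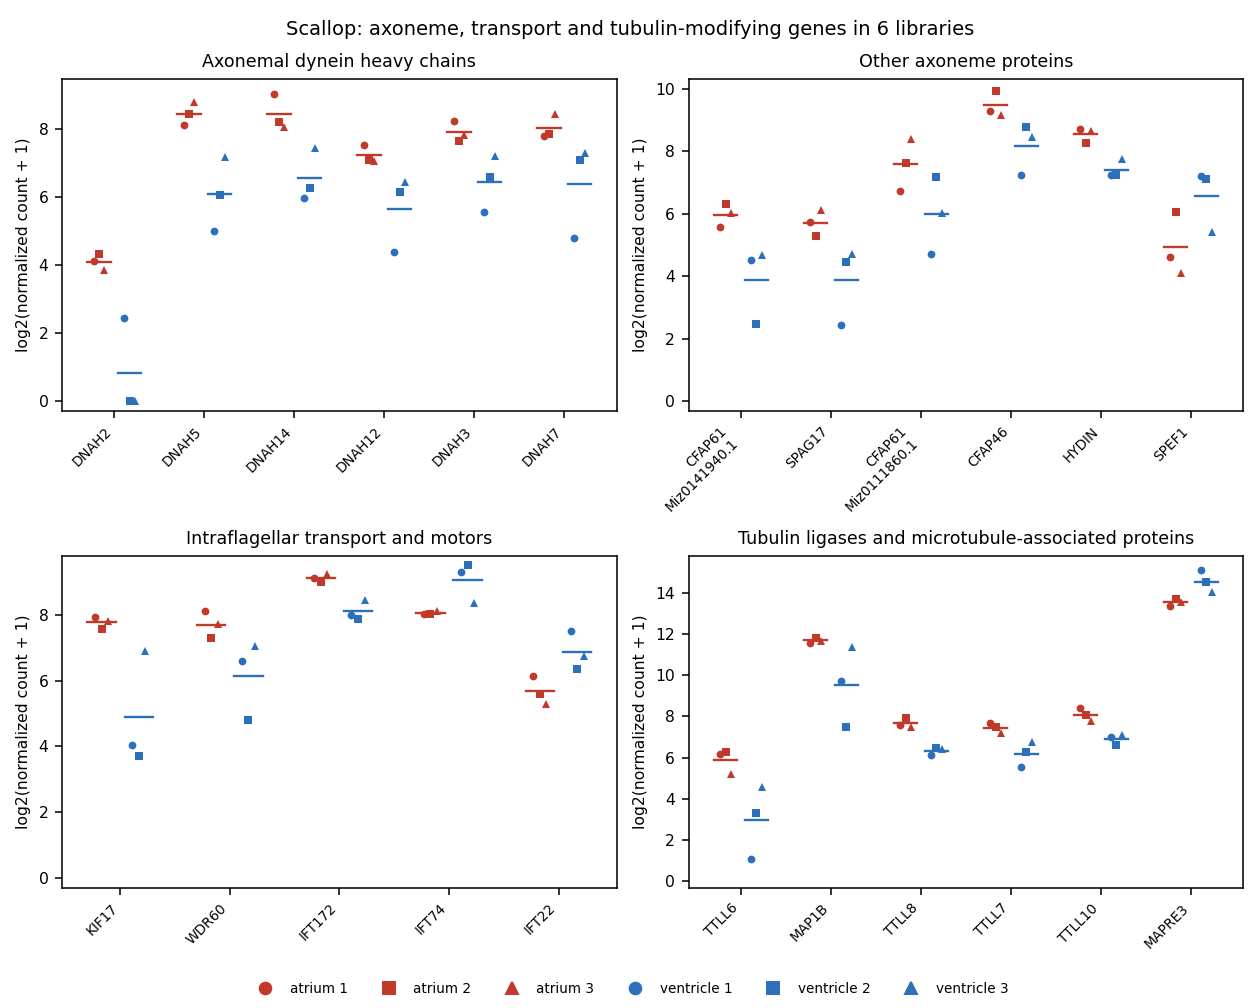
Normalized counts on a log2 scale, with 1 added, for the scallop heavy chains, other axoneme genes, transport genes and tubulin ligases with microtubule-associated proteins; each point is a library, the shape is its number and the bar is the mean of 3. Atria lie left of ventricles, and the third ventricle (triangle) often lies between the other ventricles and the atria, as for MAP1B and KIF17.

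Intraflagellar transport was divided. KIF17 (Miz0154000.1), a kinesin-2 of cilia and dendrites, had 244, 190.1 and 227 normalized counts in atria 1 to 3, against 15.5, 12.03 and 120.1 in ventricles 1 to 3. No ventricle reached an atrium, but ventricle 3 stood well above ventricles 1 and 2 (log2 fold change 2.89 ± 0.80 SE, limma adjusted p = 0.0122). WDR60 (Miz0026210.1), an intermediate chain of the dynein-2 return motor, had 278, 158 and 209.6 normalized counts in atria 1 to 3, against 97.3, 27.1 and 131 in ventricles 1 to 3, without overlap (log2 fold change 1.56 ± 0.63 SE, limma adjusted p = 0.0391). IFT172 (Miz0088080.1), of the IFT-B complex, had 566, 519.6 and 617 normalized counts in atria 1 to 3, against 257, 236 and 350.0 in ventricles 1 to 3, also without overlap (log2 fold change 1.03 ± 0.37 SE, limma adjusted p = 0.0264).

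The other IFT-B subunits IFT74 and IFT22 were higher in ventricles at -0.99 ± 0.42 and -1.19 ± 0.56 SE but did not pass, and after ribosomal rescaling they were at 0.24 and 0.03. KIF17 passed in each of the 6 fits that left out a library, and was the only transport gene to do so; 1 of the 3 passed without any 1 of the other libraries except ventricle 3, and 1 passed with edgeR.

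Enzymes that modify tubulin were higher in atria. TTLL6 (Miz0024140.1), a polyglutamylase of cilia, had 70.7, 76.4 and 36.4 normalized counts in atria 1 to 3, against 1.11, 9.02 and 22.5 in ventricles 1 to 3. Ventricle 3 was the highest ventricle and still below every atrium (log2 fold change 2.90 ± 0.91 SE, limma adjusted p = 0.0180). TTLL8 (Miz0160970.1), a glycylase that starts glycine chains, had 190.0, 239 and 179.9 normalized counts in atria 1 to 3, against 68.6, 87.2 and 84.5 in ventricles 1 to 3 (log2 fold change 1.33 ± 0.45 SE, limma adjusted p = 0.0227). TTLL10 (Miz0002830.1), a glycylase that lengthens them, had 333, 266 and 216.3 normalized counts in atria 1 to 3, against 128, 96.2 and 134 in ventricles 1 to 3 (log2 fold change 1.17 ± 0.44 SE, limma adjusted p = 0.0297). Neither glycylase overlapped between the chambers, and TTLL7, a polyglutamylase, passed at 1.28 ± 0.51 SE.

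MAP1B (Miz0163330.1), which stabilises microtubules of axons, had 3061, 3593 and 3259 normalized counts in atria 1 to 3, against 833, 180.5 and 2601 in ventricles 1 to 3. Ventricle 3 lay below the lowest atrium, at 88.9% of the way from ventricles 1 and 2 to the atrial mean, and the groups did not overlap (log2 fold change 2.17 ± 0.75 SE, limma adjusted p = 0.0233). MAPRE3, a plus-end binding protein, was higher in ventricles at -0.996 ± 0.34 SE, just short of 2-fold. Without atrium 1 or atrium 2, 0 of the 5 atrial genes passed the limma test (2 and 1 of them were past an unadjusted p of 0.05 at 2-fold or more). On the same test 1 passed without atrium 3, 3 without ventricle 1, 2 without ventricle 2 and 5 without ventricle 3. After quantile normalization 1 passed, and the authors' deposited table gave 3 an adjusted p under 0.05.

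Of 28 repeat-named members tested, 11 passed toward the atrium and 12 toward the ventricle, shares near the background of 42.0% and 45.6% of all tested genes. TTC6 (Miz0222510.1), a tetratricopeptide repeat gene, had 24.4, 15.3 and 28.2 normalized counts in atria 1 to 3, against 6.64, 0 and 2.82 in ventricles 1 to 3. This rests on 84 atrial and 9 ventricular reads, which is 6.79-fold after size factors (95% exact interval 3.41 to 15.4, counting error only). The second TTC6 gene (Miz0245760.1) had 188, 153 and 140.5 normalized counts in atria 1 to 3, against 18.8, 27.1 and 83.5 in ventricles 1 to 3, without overlap (log2 fold change 2.15 ± 0.63 SE, limma adjusted p = 0.0149).

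CCDC9 (Miz0024680.1), named for a coiled coil, had 3675, 3722 and 4109.7 normalized counts in atria 1 to 3, against 643, 302 and 2782 in ventricles 1 to 3. Ventricle 3 stood far above the other ventricles, but below the lowest atrium (log2 fold change 2.23 ± 0.65 SE, limma adjusted p = 0.0142). The other 8 atrial members were CCDC154, LRRC74B (Miz0141430.1), CCDC186, CCDC60, TTC28, CCDC162P, CCDC79 and CCDC64, with log2 fold changes of 1.27 to 2.30. A second LRRC74B gene (Miz0214930.1) was too low to test, with 34 atrial reads and 1 ventricular read, or 24.7-fold after size factors (95% exact interval 4.15 to 1005).

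Several of the ventricular members have well-known roles outside cilia. TTC19 (Miz0203070.1), a mitochondrial protein of respiratory complex III, had 5638, 6808 and 5068 normalized counts in atria 1 to 3, against 18304, 17835 and 8052 in ventricles 1 to 3. Every ventricle lay above every atrium (log2 fold change -1.25 ± 0.37 SE, limma adjusted p = 0.0150). TTC1 (Miz0037220.1), a chaperone adaptor, had 530.3, 555 and 531 normalized counts in atria 1 to 3, against 1778, 1496 and 879 in ventricles 1 to 3, without overlap (log2 fold change -1.30 ± 0.36 SE, limma adjusted p = 0.0128). LRRC20 (Miz0029010.1), a leucine-rich repeat gene, had 169.7, 168 and 181 normalized counts in atria 1 to 3, against 378, 665 and 312 in ventricles 1 to 3 (log2 fold change -1.31 ± 0.43 SE, limma adjusted p = 0.0203).

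CCDC115 (Miz0138210.1), needed to assemble the vacuolar proton pump, had 126, 150.0 and 154 normalized counts in atria 1 to 3, against 450.2, 582 and 266 in ventricles 1 to 3, and again no atrium reached a ventricle (log2 fold change -1.52 ± 0.44 SE, limma adjusted p = 0.0142). ARMC1 (Miz0202650.1), a mitochondrial armadillo-repeat protein, had 5.68, 8.60 and 14.9 normalized counts in atria 1 to 3, against 24.3, 25.6 and 46.0 in ventricles 1 to 3. It had the largest ventricular fold change of the class and passed the limma test at an adjusted p of 0.0470 (-1.65 ± 0.71 SE), but in none of the 6 fits that left out a library. The remaining 7 that passed were EFCAB11, TTC9C, CCDC58, CCDC12, TTC4, CCDC97 and LRRC61, from -1.08 to -1.55.

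ARMC6, CCDC101, CCDC130, CCDC105 and LRRC42 did not pass, at -0.95 to -1.08. TTC4, CCDC97, LRRC61 and these 5 changed sign after ribosomal rescaling, under which 0 of the 12 passed in limma (0 also at an unadjusted p under 0.05 with 2-fold), against 2 with edgeR and 15 repeat-named members with DESeq2 on the authors' scaling. Leaving out atrium 1 left 2 atrial and 2 ventricular repeat-named members, atrium 2 left 4 and 6, atrium 3 left 5 and 7, ventricle 2 left 8 and 5, and ventricle 3 left 10 and 16.

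The atrial excess of the members was moderate. No atrial member reached 8-fold among the 29 that passed, against 30.0% of the 1648 genes that passed toward the atrium, and the median log2 fold change was 1.81 for these members and 2.25 for those genes. Ventricular members had a median absolute log2 fold change of 1.31, against 1.42 for all genes that passed toward the ventricle. No set test was made, so these shares are descriptions.

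Ventricle 3 lay about midway between the mean of the other ventricles and the atria for many members. This position was computed for ventricle 3 alone. In some members ventricle 1 was the low library and ventricles 2 and 3 lay closer, as for DNAH7 at 26.5, 135 and 157 in ventricles 1 to 3. Across the 29 atrial members ventricle 3 lay a median 52.2% of the way (quartiles 26.8% and 63.9%), and 15 of 29 were past the midpoint, against 33.6% of the 1648 genes. Across the 15 ventricular members the median was 51.0%, against 41.8% of the 1792 genes that passed toward the ventricle. CCDC186 at 94.0%, MAP1B at 88.9%, CCDC9 at 85.2% and KIF17 at 77.97% lay nearest the atria among those that passed. The difference between members and all genes was not tested. Without ventricle 3 the log2 fold change was 3.91 for KIF17, 3.12 for CCDC9, 3.08 for MAP1B, 3.69 for TTLL6 and 2.92 for DNAH5, and 27 atrial and 23 ventricular members passed. Without atrium 1, atrium 2, atrium 3, ventricle 1 or ventricle 2, the atrial count was 4, 7, 9, 15 and 19 and the ventricular count 4, 9, 9, 12 and 7. Over all tested genes the same fits gave 968, 866, 1141, 1167 and 1244 toward the atrium and 909, 942, 1202, 1186 and 1161 toward the ventricle, against 1648 and 1792 with every library.

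**Figure D3:**
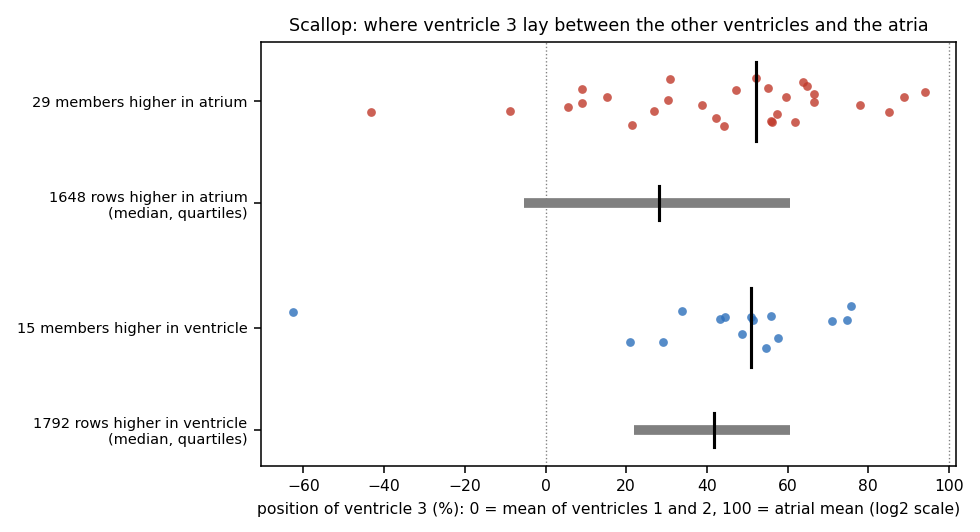
Position of scallop ventricle 3 on the log2 scale, in percent of the way from the mean of ventricles 1 and 2 (0) to the atrial mean (100). Points are the members that passed in each direction, black lines are medians and grey bars the quartiles of all listed genes that passed; the 29 atrial members centre on 52.2%, against 28.1% for all 1648 atrial genes.

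Other genes of cilia and microtubules in the scallop table, from lists that do not overlap the members, gave a mixed picture. The background for their counts was 42.0% of all tested scallop genes toward the atrium and 45.6% toward the ventricle. Of 9 basal body, centriole and transition zone genes, 5 passed toward the atrium, 1 toward the ventricle and 3 did not pass, with a median log2 fold change of 1.61. CSPP1 (Miz0025660.1), a centrosome and ciliary base protein, averaged 699 ± 156 in atria and 232 ± 75.7 in ventricles (SD, n = 3 each), and B9D1, of the transition zone, averaged 323 ± 5.09 in atria and 780.0 ± 225 in ventricles. Of 12 trafficking, signalling and other axoneme genes, 11 were tested, 6 passed toward the atrium and 3 toward the ventricle. PKD1L1 (Miz0257280.1), a polycystin-family channel protein of cilia, averaged 5366 ± 689 in atria and 2161 ± 1113 in ventricles, and PIH1D1, a chaperone cofactor, averaged 376 ± 58.1 in atria and 833 ± 278 in ventricles.

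Of 19 other kinesins and microtubule regulators, 9 passed toward the atrium and 8 toward the ventricle, shares near the background of 42.0% and 45.6%. TPPP2, a tubulin-binding protein, averaged 5291 ± 3729 in atria and 1777 ± 693 in ventricles with overlapping groups, and TBCA, a tubulin folding cofactor, averaged 2404 ± 282 in atria and 5429.9 ± 1559 in ventricles. The ventricular genes included TPX2, KIF23, TACC3, KIF15 and KIF4A, which are known from the mitotic spindle and are named here after their values were seen.

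Markers of other cell types moved with the chambers in scallop, where the background was 42.0% of all tested genes toward the atrium and 45.6% toward the ventricle. Of 23 neuronal markers, 19 passed toward the atrium and 2 toward the ventricle of 22 tested, and their summed normalized counts were 15584.5 to 16733 in atria, against 7094 to 8809 in ventricles. None was at 0 in every atrium, and only a GRIN2B copy was at 0 in every ventricle. KIF17 and MAP1B are also genes of neurons. Germ cell markers ODF2, SYCP1 and MEIOB summed to 104 to 427 in atria, against 18.05 to 74.1 in ventricles, with MEIOB at 0 in every ventricle. Of 9 hemocyte markers tested, 3 passed toward the atrium (C5, RUNX1 and TLR1) and 5 toward the ventricle. Their sum, 46978 to 49104 in atria, against 79755 to 110257 in ventricles, included 1 F13A1 gene (Miz0109410.1) that alone averaged 14600.0 ± 5643 in atria and 63369 ± 3164 in ventricles, while C5 averaged 14466 ± 1046 in atria and 3841 ± 315 in ventricles. MUC5B, a mucin, had 49.7 to 89.9 in atria, against 9.38 to 18.05 in ventricles. The part of these markers in the members' values was not tested.

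In snail, 12 members were listed and few were axoneme genes. Of 10 tested, 2 passed toward the atrium and 6 toward the ventricle, against a background of 46.9% and 37.0% of 1489 tested genes, and the median log2 fold change was -1.23 for the members and 1.22 for all tested genes. Of the 10 tested members, 2 had all atria above, 6 had all ventricles above and in 2 the groups overlapped. The background was 46.6% of all tested genes with all atria above and 39.6% with all ventricles above. The authors' deposited table gave 8 of the 12 an adjusted p under 0.05, against 67.4% of all listed snail genes. The median of all tested snail genes moved to 1.40 after further TMM scaling, with 2 atrial and 6 ventricular members passing, and to 0.23 after quantile normalization, with 1 and 7.

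The axoneme members proper were low. DNAH10, an inner arm heavy chain, had 1, 6 and 10 reads in atria 1 to 3 and 0 in every ventricle. With 3 reads assumed over the ventricles, it was 3.05-fold higher in atria. The authors' deposited table gave it an adjusted p of 0.243. TEKT3, a tektin of the doublet wall, had 15, 16 and 6 reads in atria and 0 in every ventricle. It was 6.64-fold higher on the same assumption, with an adjusted p of 0.0133 in the authors' deposited table. Both folds leave out the counting error of the atrial reads. CFAP20 (Afu019834), of the inner junction of the doublets, had 8.03, 7.58 and 5.98 normalized counts in atria 1 to 3, against 18.4, 17.1 and 21.5 in ventricles 1 to 3. It was higher in every ventricle (log2 fold change -1.29 ± 0.41 SE, limma adjusted p = 0.0238), but passed in only 2 of the 6 fits that left out a library, those without atrium 2 or ventricle 2.

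CCDC88A (Afu016174), which codes for girdin, an actin-binding protein, had 174, 200.2 and 140.3 normalized counts in atria 1 to 3, against 12.96, 20.5 and 5.37 in ventricles 1 to 3. It was the largest difference among the snail members and each atrium was far above each ventricle (log2 fold change 3.78 ± 0.48 SE, limma adjusted p = 0.00121). TUBA3E (Afu008568), an alpha-tubulin, had 120.4, 135 and 102 normalized counts in atria 1 to 3, against 48.6, 66.6 and 33.6 in ventricles 1 to 3, without overlap (log2 fold change 1.29 ± 0.32 SE, limma adjusted p = 0.0106). TUBA3D, a second alpha-tubulin, did not pass at 1.08 ± 0.54 SE and was at -0.41 after quantile normalization; near-identical tubulin copies can share reads.

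The ventricular members were mostly repeat-named. ARMC10 (Afu017117), a mitochondrial armadillo-repeat protein, had 125, 87.2 and 99.0 normalized counts in atria 1 to 3, against 199, 371 and 198 in ventricles 1 to 3. CCDC141 (Afu020335), a coiled-coil gene, had 515, 819.7 and 606 normalized counts in atria 1 to 3, against 1597, 2449 and 1271 in ventricles 1 to 3. Neither overlapped between the chambers (log2 fold changes -1.24 ± 0.33 and -1.43 ± 0.31 SE, limma adjusted p = 0.0126 and 0.00664). Without ventricle 2, ARMC10 was at -0.94 and so short of 2-fold.

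**Figure D4:**
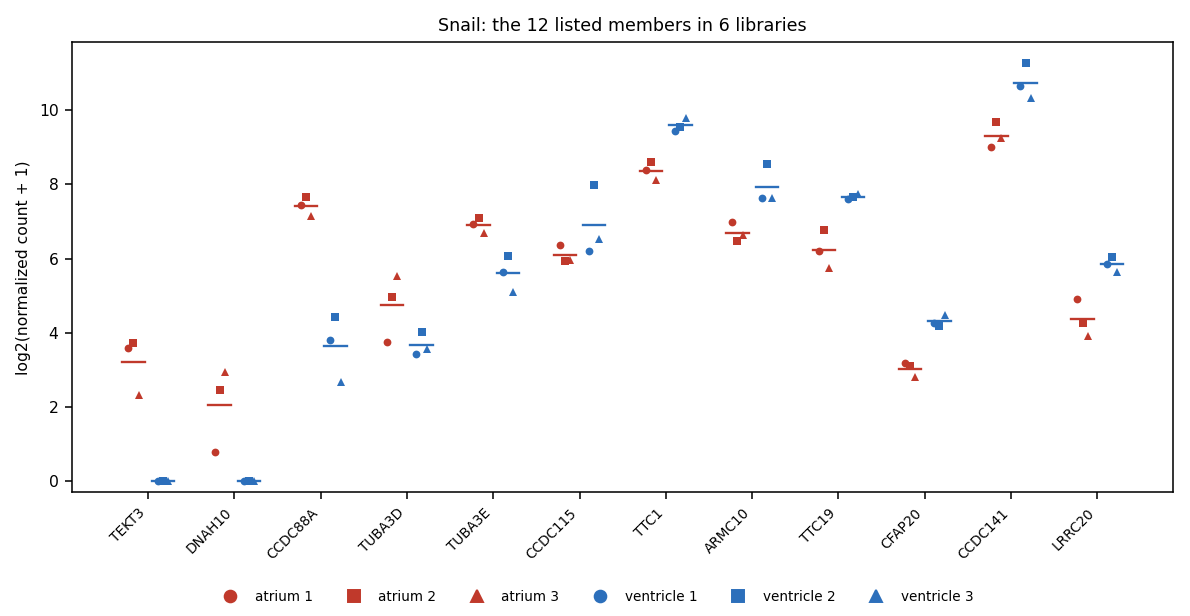
Normalized counts on a log2 scale, with 1 added, of the 12 snail members; each point is a library, the shape is its number and the bar is the mean of 3, with atria left of ventricles. TEKT3 and DNAH10 lie at 0 in the ventricles, and CCDC88A shows the widest separation of the chambers among the tested members.

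Among the other cilia and microtubule genes of the snail table, 3 basal body genes were tested, and 2 passed toward the atrium and 1 toward the ventricle. CCP110, a centriole cap protein, averaged 47.4 ± 7.37 in atria and 23.05 ± 8.33 in ventricles. CLIP1, a plus-end protein, averaged 58.7 ± 13.4 in atria and 6.71 ± 2.37 in ventricles. Hemocyte markers of snail summed to 2812 to 7080 normalized counts in atria, against 285 to 376 in ventricles. Of 11 tested, 7 were higher in atria and passed, 4 did not pass and 0 passed in the other direction. CD109 (Afu021881) averaged 1925 ± 1405 in atria and 44.2 ± 22.8 in ventricles. CD109 (Afu021879) averaged 1809 ± 1115 in atria and 60.3 ± 51.3 in ventricles. C1QL3 had 83.2, 1.52 and 612 in atria 1 to 3 and 0 in every ventricle. RUNX1, too low to test, averaged 2.28 ± 2.33 in atria and 11.1 ± 8.68 in ventricles, with overlapping groups. Neuronal markers summed to 791 to 1137 in atria, against 574 to 893 in ventricles. Of these, 6 of 11 tested passed toward the atrium and 4 toward the ventricle. Epithelial markers MUC20 and GRHL2 summed to 0.758 to 69.1 in atria and were 0 in every ventricle. The part of these markers in the members' values was not tested.

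The symbols listed in both tables numbered 4, each repeat-named: TTC1, TTC19, LRRC20 and CCDC115. In snail, TTC1 (Afu002121) had 333, 389 and 277 normalized counts in atria 1 to 3, against 692, 749.8 and 884 in ventricles 1 to 3. TTC19 (Afu013177) had 72.3, 108 and 53.2 normalized counts in atria 1 to 3, against 192, 199.8 and 211 in ventricles 1 to 3. LRRC20 (Afu015586) had 29.2, 18.2 and 13.96 normalized counts in atria 1 to 3, against 57.2, 64.9 and 48.4 in ventricles 1 to 3. All 3 were higher in every ventricle (log2 fold changes -1.22 ± 0.22, -1.42 ± 0.31 and -1.48 ± 0.36 SE, limma adjusted p = 0.00374, 0.00647 and 0.00960), as in scallop. CCDC115 (Afu023311) had 81.0, 60.7 and 61.8 normalized counts in atria 1 to 3, against 73.4, 253 and 91.4 in ventricles 1 to 3, with overlapping groups and no pass (-0.82 ± 0.48 SE, limma adjusted p = 0.136).

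The chamber difference was compared between species by an interaction term in limma over the 328 symbols listed in both tables, of which 23.5% passed. None of the 4 passed. The scallop minus snail difference in log2 fold change was -0.70 for CCDC115 (95% interval -2.13 to 0.73, limma adjusted p = 0.639), 0.18 for LRRC20 (-1.14 to 1.49, adjusted p = 0.949), -0.08 for TTC1 (-0.92 to 0.76, adjusted p = 0.949) and 0.17 for TTC19 (-0.82 to 1.15, adjusted p = 0.949). These intervals still allow differences of over 2-fold for CCDC115, LRRC20 and TTC19.

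**Figure D5:**
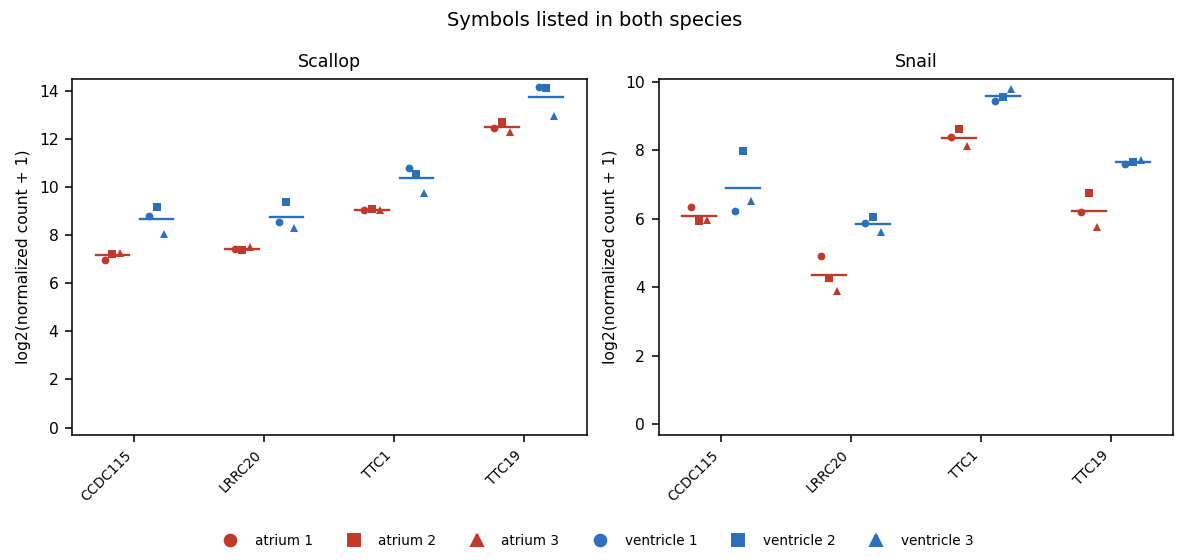
Normalized counts on a log2 scale, with 1 added, of the 4 symbols listed in both species, with atria left of ventricles, each point a library and the bar the mean of 3. Ventricles lie above atria for TTC1, TTC19 and LRRC20 in both species, and for CCDC115 the groups overlap in snail; levels are not comparable between the panels because each species was normalized on its own.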

How the data were processed

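RNA of 12 libraries (3 atrium and 3 ventricle per species) was measured by poly-A RNA sequencing, and groups were taken from the sample titles. The submitters' processing notes name DESeq2 1.20.0, StringTie 1.3.3b, featureCounts 1.5.0 and HISAT2 2.0.5 without saying what each was used for. The genome build, the annotation and whether strand was counted are not given in the sources used here. The authors deposited a signal per library, gene read counts divided by a size factor; whole reads were recovered for 100% of values in each library (tolerance 0.01 read). The authors' deposited log2 fold changes run ventricle over atrium and were turned round here. The authors' deposited p-values served to describe the tables' selection and as an alternative. The deposited score that divides each fold change by its standard error was not used.

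Since the values were not raw counts, limma 3.58.1 was fitted on log2(normalized count + 1) of all listed genes with a mean of at least 10, per species, with Benjamini-Hochberg adjustment. The adjustment ran within genes already selected for a chamber difference, so it does not control the error rate over all measured genes. A fold change on this scale understates the change of low genes. edgeR 4.0.16 and DESeq2 1.42.0 on the recovered reads, other scalings, filters and pseudocounts, and fits without each library were alternatives. The fits were tested on simulated data. Same-chamber libraries differed beyond sampling noise (mean chi-square per gene 17.5 to 438). Genes named with values in every library were, per class, the 3 most abundant that passed, the largest change in each direction, the symbols of both tables and every copy of these. The members and lists were chosen with earlier results of these data known.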

Additional observations from a re-analysis of the deposited data

How the results depend on the processing

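Fold changes kept their sign in most settings: of the values recomputed for scallop members, 13 reversed, all after ribosomal rescaling, and of those for snail members 1 did, TUBA3D at -0.41 after quantile normalization. The ribosomal reversals were ARMC6 at 0.27, DNAL1 at 0.26, CCDC105 at 0.16, LRRC61 at 0.15, CCDC130 at 0.26, LRRC42 at 0.15, MAPRE3 at 0.24, CCDC101 at 0.29, CCDC97 at 0.12, TTC4 at 0.0939, IFT22 at 0.0305, DNAL4 at 0.0814 and IFT74 at 0.24. The ribosomal protein genes used were themselves listed for a chamber difference, so these reversals depend on that choice of reference. That rescaling was not run in snail, whose table lists too few ribosomal protein genes. In scallop, quantile normalization left 11 atrial members, with 2 heavy chains, 2 other axoneme, 4 repeat-named and 1 tubulin ligase or microtubule-associated gene, and toward the ventricle 2 axonemal light chains, 0 cytoplasmic light chains, 1 transport and 1 other axoneme gene; in snail it left 1 atrial member and 0 tubulins. By the authors' adjusted p, 15 scallop members passed toward the atrium, with 2 heavy chains, 1 other axoneme, 7 repeat-named and 3 ligase or microtubule-associated genes, and 1 of the last class toward the ventricle, while CFAP20, the snail axoneme gene that passed toward the ventricle, did not pass (0 of 1 tested). Further TMM scaling left 4 ventricular members, with 0 axonemal light chains and 2 repeat-named genes, and ribosomal rescaling left 0 ventricular members in every class that had any. With edgeR, 3 ventricular members passed, with 0 axonemal and 1 cytoplasmic light chain and 2 repeat-named genes, 1 atrial transport gene and 2 snail tubulins. DESeq2 gave 2 axonemal light chains and 1 transport, 1 other axoneme and 1 ligase-class gene toward the ventricle (22 members in all). Over all genes, edgeR passed 1428 toward the atrium and 581 toward the ventricle in scallop and 798 and 419 in snail, and DESeq2 1619 and 2049 in scallop and 791 and 583 in snail, against 1648 and 1792 and 698 and 551 in limma. With no 2-fold limit, 1 transport and 1 ligase-class gene passed toward the ventricle. A minimum mean of 50 left 3 other axoneme genes in scallop and 0 in snail, a pseudocount of 5 gave 1 ventricular one in scallop and 0 in snail, and no filter gave 4 atrial snail members. The cause of these moves was not tested.

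Without 1 library at a time, the atrial scallop count ranged from 4 to 27 and the ventricular from 4 to 23. By class, atrial counts ranged from 1 to 5 (heavy chains), 1 to 3 (transport), 0 to 4 (other axoneme), 2 to 10 (repeat-named) and 0 to 5 (ligases and microtubule-associated), and ventricular counts from 0 to 2 (axonemal light chains), 0 to 1 (transport, other axoneme and ligases) and 2 to 16 (repeat-named). In snail they ranged from 0 to 1 (axoneme) and 1 to 2 (tubulins). The interaction of TTC1 was 0.21 after TMM and 0.34 after quantile scaling, and without 1 library the interactions ranged from -0.37 to 0.13 (TTC1), -0.0511 to 0.49 (LRRC20) and -0.22 to 0.43 (TTC19).

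The labels do not say whether same-numbered chambers came from 1 animal. Correlations of the deviations from the chamber means cannot settle it with 3 libraries per chamber. For same-numbered libraries they were -0.13, -0.16 and -0.12 in scallop and -0.06, -0.09 and 0.06 in snail. In scallop no library correlated best with its own number, and in snail only ventricle 3 did. With the replicate block, 22 atrial and 11 ventricular scallop members passed, with 3 other axoneme, 2 ligase or microtubule-associated genes and 0 axonemal light chains, and 2 and 5 in snail, with 0 axoneme genes. Reads per gene limit DNAH2, DNAH10, TEKT3 and LRRC74B (Miz0214930.1). The intervals of DNAH2 and LRRC74B cover counting error only, and the folds of DNAH10 and TEKT3 rest on 3 reads assumed over the ventricles.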
